A study of Homo sapiens with 24 samples.

Results

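Nelfinavir was added to bortezomib (Btz) in HepG2 cells, and every gene was compared between the libraries that received both drugs and those that received Btz alone. These are 8 of the 24 libraries of the series, 4 a group, and they were chosen by their treatment labels. The Btz libraries came from cells given 50 nM Btz for 10 h, and the Btz + nelfinavir libraries from cells given 50 nM Btz and 20 µM nelfinavir for 10 h. Libraries from cells given vehicle (DMSO), 20 µM nelfinavir alone, or 50 nM Btz with 50 nM ISRIB, each for 10 h and 4 a group, serve here to show where the combination differed. All libraries came from HepG2, a single established line from a human liver tumour, and the libraries of a group are described as biological replicates, without saying whether they were grown on separate days. The p-values therefore measure only the spread between these libraries, which may in part be technical.

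Btz blocks the proteasome, the complex that degrades ubiquitin-tagged proteins. Misfolded proteins then accumulate in the cytosol, where heat shock factor HSF1 raises chaperones, and in the endoplasmic reticulum (ER), where the unfolded protein response (UPR) acts through the sensors PERK, ATF6 and IRE1 to raise ER chaperones and the degradation machinery. PERK is also one of the kinases that phosphorylate eIF2α, which slows translation, favours that of the transcription factor ATF4 and so starts the integrated stress response (ISR). Nelfinavir is an HIV protease inhibitor that also switches on this pathway, with more eIF2α in its phosphorylated form. ISRIB stabilises the exchange factor eIF2B and so keeps translation going despite that phosphorylation. The question put to the comparison is how the response to Btz changes when nelfinavir is added.

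RNA was read from the 3′ end of transcripts, so that a gene's count depends little on its length. Levels are given as CPM, a library's counts scaled to a common total with TMM factors, with libraries 1 to 4 in order. Differences are log2 fold changes ± SE from edgeR's quasi-likelihood model of 4 libraries a group, and a gene is called at a Benjamini-Hochberg adjusted p under 0.05. Total counts ran from 5380478 to 5995495 in the Btz libraries and from 5417434 to 6173764 in the Btz + nelfinavir libraries (exact permutation test, two-sided p = 0.257). Mitochondrially encoded genes took 33.78% ± 1.19 (SD, n = 4) of all counts with Btz and 27.16% ± 2.26 (SD, n = 4) with both drugs, with no overlap (exact permutation p = 0.0286, the smallest that 70 splits allow). All 10 hepatocyte markers fixed for the check were counted in all 8 libraries, among them ALB at 1562 to 3070 CPM and APOA1 at 894 to 1216 CPM. Of 16 markers of blood, endothelial and stromal cells, 8 had a row and 4 passed 1 CPM in any of the 8 libraries (LYZ, ACTA2, CD68 and CD14), with a summed level of 150.1 to 226 CPM with Btz and 128 to 194 CPM with both drugs. COL3A1 was at 0 in all 8. In bulk RNA, fewer cells of a kind and less RNA per cell cannot be told apart.

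The Btz + nelfinavir libraries fell into pairs. Libraries 3 and 4 stood apart from 1 and 2, with a chi-square per degree of freedom of 13.2 to 20.3 across the pairs, 3.99 within the first pair and 7.30 within the second, against 4.49 to 9.30 among the Btz libraries. On the second principal component the first pair lay at -21.7 and -21.9 and the second at -51.3 and -34.0. The labels give no reason for this. Counts below are therefore also given without libraries 3 and 4, and for all genes and some lists without libraries 1 and 2. Nothing in the labels says which pair is the unusual one.

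**Figure D1:**
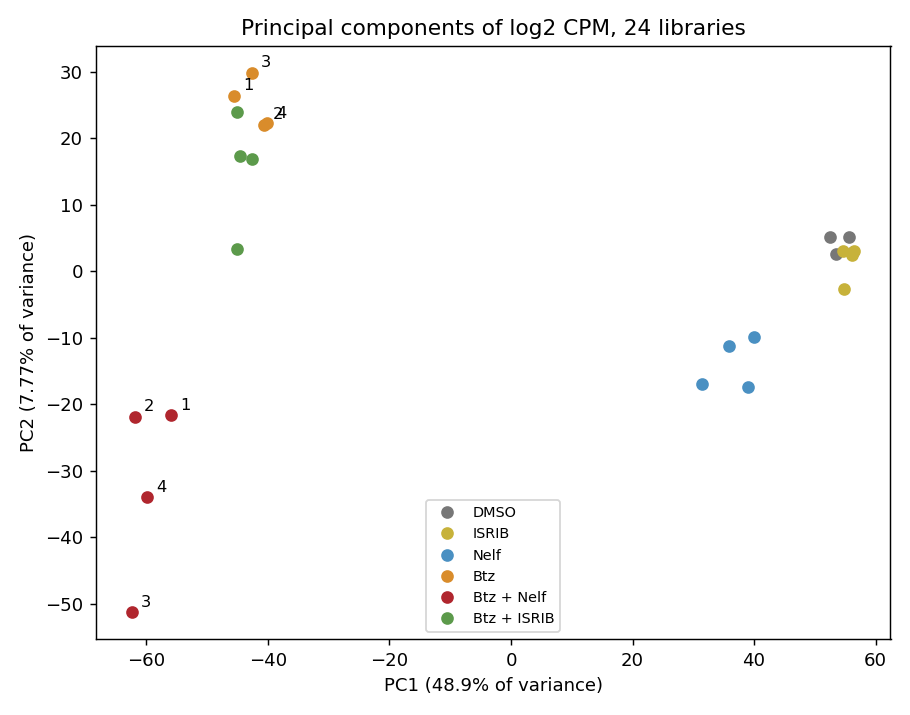
Principal components 1 and 2 of log2 CPM over all 24 libraries, each point a library, coloured by group and numbered by replicate, with the share of variance on each axis. The Btz + nelfinavir libraries lie lowest on component 2, from -21.7 to -51.3, with libraries 3 and 4 below libraries 1 and 2, and the Btz libraries lie between 22.1 and 29.9.

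Adding nelfinavir to Btz raised 1975 genes (15.6% of the 12685 tested) and lowered 1694 (13.4%). More than 2-fold higher were 396 genes (3.12%) and more than 2-fold lower 473 (3.73%), although a test against a 2-fold change itself passed 48 and 18. The 4 libraries of one group lay wholly above those of the other for 2733 genes (21.5%), among them 623 of the 869 called genes past 2-fold. Without libraries 3 and 4, 1547 genes rose and 1098 fell, and without libraries 1 and 2, 2197 rose and 1635 fell. The median log2 change over all genes tested was -0.02. Each count of list members called on adding nelfinavir to Btz is to be set beside the 15.6% and 13.4% of all genes. Of the lists described below, 23 of 25 ER chaperones, 20 of 28 cytosolic heat shock genes and 6 of 7 metal response genes rose, while 13 of 25 hepatocyte secreted proteins and 14 of 25 mitotic genes fell. The middle 50% of all genes lay between -0.39 and 0.32, and the medians of the last pair of lists lay within it.

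Among genes that rose the smallest p was that of HSPA5, which encodes BiP, the main Hsp70 chaperone of the ER lumen and the protein that holds the UPR sensors inactive. HSPA5 (Ensembl gene ENSG00000044574, chr9:127997132-128003661 in GRCh37, minus strand) was counted at 2278, 2148, 1905 and 2204 CPM with Btz and at 11480, 12300, 16940 and 12950 CPM with both drugs. Every library with nelfinavir lay above every library without it, a 6.29-fold difference of means (log2 2.65 ± 0.10, adjusted p = 3.14e-19). DMSO libraries held 1400, 1455, 1456 and 1526 CPM and nelfinavir-only libraries 1734, 1399, 1684 and 1507 CPM, so that nelfinavir without Btz gave a log2 change of 0.12 (adjusted p = 0.477). The change on adding nelfinavir therefore differed with and without Btz, by 2.54 ± 0.14 log2 units (adjusted p = 2.64e-15).

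Of 25 tested ER chaperones and folding enzymes, 23 rose, 11 of them more than 2-fold, and none fell, with a median of 0.83. Without libraries 3 and 4, 22 rose and 1, SIL1, fell (-0.53, adjusted p = 0.0349). The summed level of the 26 counted members went from 9875 ± 404 to 27280 ± 2580 CPM (SD, n = 4) and HSPA5 made up the largest part of it. Several partners of BiP rose as well, although its exchange factor SIL1 was not called (-0.22 ± 0.16, adjusted p = 0.302). SDF2L1, which partners ER DnaJ proteins, went from 61.4, 56.05, 52.2 and 55.5 to 235, 235, 273 and 229.7 CPM (log2 2.11 ± 0.14, adjusted p = 1.59e-13). DNAJB11, which delivers substrates to BiP, went from 161, 160.2, 161 and 154 to 329.7, 347, 399 and 354 CPM (log2 1.17 ± 0.07, adjusted p = 1.04e-13). HYOU1, a nucleotide exchange factor for BiP, stood at 274, 256, 260.4 and 264 CPM and at 767, 745, 951 and 835 CPM (log2 1.65 ± 0.11, adjusted p = 3.27e-13). In all 3 the groups did not overlap, and library 3 was the highest with both drugs.

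Other folding factors rose as well. HSP90B1, the Hsp90 of the ER, was at 1784, 1765, 1526 and 1582 CPM with Btz and 3833, 4453, 3404 and 3195 CPM with nelfinavir added (log2 1.16 ± 0.10, adjusted p = 1.36e-10). FKBP14, a prolyl isomerase, had 65.02, 65.6, 54.1 and 37.2 and 169.7, 196, 206 and 195 CPM (log2 1.79 ± 0.12, adjusted p = 1.48e-13). ERO1LB, the oxidase that recharges protein disulphide isomerase, had 5.13, 7.56, 10.4 and 7.996 and 34.2, 39.5, 36.4 and 38.5 CPM (log2 2.26 ± 0.22, adjusted p = 1.28e-09). The groups of these 3 genes lay apart in every library. ERO1L, a paralogue of ERO1LB, did not pass the test, at 62.9, 59.3, 54.9 and 55.97 and 72.3, 64.04, 49.5 and 57.2 CPM (log2 0.06 ± 0.11, adjusted p = 0.721). MANF, a secreted ER stress protein, was higher in both pairs but more so in the first, at 215, 172, 186 and 196 CPM and 597, 660.1, 377 and 399.8 CPM (log2 1.4 ± 0.14, adjusted p = 1.65e-09). DNAJB9, a BiP co-factor that restrains IRE1, rested on the first pair, with 49.8, 35.9, 46.3 and 50.4 CPM against 170.1, 179, 51.1 and 73.01 CPM (log2 1.37 ± 0.30, adjusted p = 0.000632). Without libraries 1 and 2 its change was 0.50 (adjusted p = 0.169).

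Many ER chaperone promoters carry the ER stress element, a CCAAT box bound by NF-Y and a CCACG core bound by ATF6 or XBP1, written here as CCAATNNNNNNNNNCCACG and searched on both strands. It was searched after the changes had been seen. Promoter windows of 250 bases before to 50 bases after the start (RefSeq, GRCh38.p14) matched 9715 of the tested genes, and 13 of these (0.134%) held the element, as did 0.0842% of all 27305 windows. In the ER chaperone list 6 of 23 matched members held it (26.1%). The stretches around it are shown because 6 chaperone genes share it, with the CCAAT and CCACG parts, or their reverse complements, in capitals and GRCh38.p14 coordinates.
HSPA5 (chr9:125241376-125241424, minus strand): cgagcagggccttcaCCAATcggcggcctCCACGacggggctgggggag
HSP90B1 (chr12:103930201-103930354, plus strand): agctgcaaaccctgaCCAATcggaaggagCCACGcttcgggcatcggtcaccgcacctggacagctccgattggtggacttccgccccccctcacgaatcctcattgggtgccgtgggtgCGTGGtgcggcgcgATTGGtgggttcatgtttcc
CALR (chr19:12938369-12938417, plus strand): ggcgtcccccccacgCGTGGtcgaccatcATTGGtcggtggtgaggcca
CANX (chr5:179698763-179698811, plus strand): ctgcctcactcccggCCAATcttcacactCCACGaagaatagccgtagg
CRELD2 (chr22:49918539-49918587, plus strand): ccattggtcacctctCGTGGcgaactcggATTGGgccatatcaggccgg
ERO1LB (chr1:236282168-236282208, minus strand): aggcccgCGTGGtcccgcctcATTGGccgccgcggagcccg

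HSP90B1 holds the element 2 times, on opposite strands. Of the 13 tested genes with the element, 10 were called higher and 1 lower, against 15.6% and 13.4% of all genes. CRELD2, a chaperone-associated secreted protein, went from 35.5, 31.03, 26.8 and 36.7 to 72.5, 69.9, 106 and 109 CPM (log2 1.46 ± 0.13, adjusted p = 3.46e-10). CALR, the lectin chaperone calreticulin, went from 958, 886, 845 and 978 to 1423, 1354, 1630 and 1525 CPM (log2 0.69 ± 0.08, adjusted p = 4.84e-08). CANX, its membrane partner calnexin, changed least of the 6, by 0.23 ± 0.08 (adjusted p = 0.0256), and lost its call without libraries 3 and 4 (0.11, adjusted p = 0.379). Outside the list, FICD, the enzyme that AMPylates BiP, rose by 1.72 ± 0.20 (adjusted p = 3.98e-08) and SERP1, a translocon-associated protein, by 0.79 ± 0.10 (adjusted p = 3.8e-07). The member that fell was XBP1, described below. The shorter core CCACG alone was in 50.3% of tested windows, in 73.9% of the ER chaperone windows, in 58.8% of genes more than 2-fold higher and in 44.6% of those more than 2-fold lower. A match describes the letters only.

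**Figure D2:**
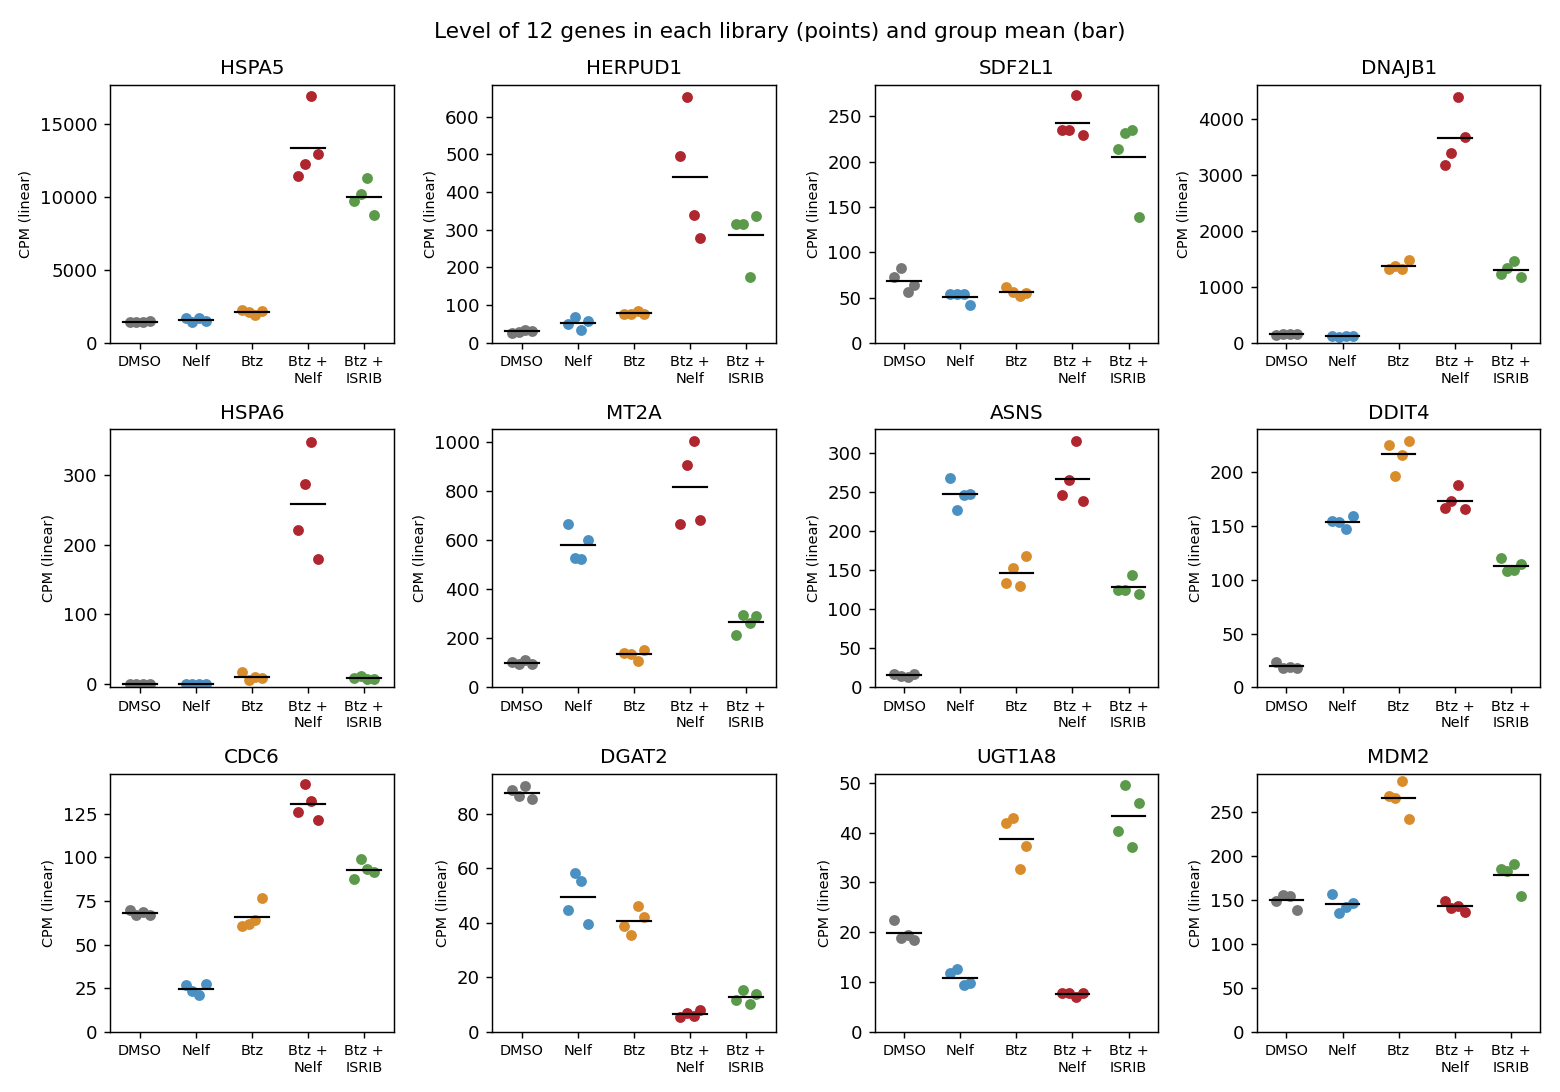
CPM (linear scales that differ between panels) of 12 genes in the DMSO, nelfinavir (Nelf), Btz, Btz + nelfinavir and Btz + ISRIB libraries, each point a library and each bar the group mean. HSPA5, HERPUD1, SDF2L1, DNAJB1, HSPA6 and MT2A lie higher in every Btz + nelfinavir library than in any Btz library, DGAT2, UGT1A8 and MDM2 lie lower, and DDIT4 and CDC6 show opposite responses to nelfinavir with and without Btz.

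Genes of ER-associated degradation, which returns misfolded proteins to the cytosol, followed the chaperones. Of 17 tested, 11 rose and 1 fell, with a median of 0.56, and without libraries 3 and 4 the numbers were 10 and 1. HERPUD1, a scaffold of the degradation complex, went from 77.4, 76.4, 84.7 and 76.3 to 497, 653, 338 and 277 CPM (log2 2.49 ± 0.20, adjusted p = 3.02e-11). The first pair was higher than the second, and both were above all Btz libraries. SEL1L, the adaptor of the ligase HRD1, was at 70.8, 84.6, 74.4 and 75.2 and 162, 169.6, 188 and 184 CPM (log2 1.21 ± 0.09, adjusted p = 2.27e-12). VIMP, a selenoprotein that recruits the segregase p97, was at 182, 177, 161 and 156 and 364, 369.7, 270.3 and 309 CPM (log2 0.96 ± 0.09, adjusted p = 1.7e-09). EDEM1, a mannose-trimming lectin, had few counts and depended on the first pair, at 10.9, 9.503, 10.4 and 12.5 and 30.4, 51.1, 15.7 and 21.4 CPM (log2 1.45 ± 0.35, adjusted p = 0.00223, and 0.83 with adjusted p = 0.0911 without libraries 1 and 2). The gene that fell was NPLOC4, a p97 cofactor, at 228, 245, 212 and 237 and 164, 190.5, 189 and 212 CPM (log2 -0.29 ± 0.09, adjusted p = 0.0138). Its groups overlapped, and its call was lost without libraries 1 and 2 (-0.15, adjusted p = 0.282).

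The entry and exit routes of the ER rose too. Of 30 tested genes of the translocon, N-glycosylation and COPII coat, 18 rose and none fell by the adjusted test (27 had a positive change), with a median of 0.43, and 21 rose without libraries 3 and 4. SSR3, a subunit of the translocon-associated TRAP complex, went from 299, 276, 256 and 287 to 630.1, 652, 571 and 590.1 CPM (log2 1.13 ± 0.08, adjusted p = 1.66e-12). SEC24D, a cargo adaptor of COPII vesicles, went from 22.5, 28.3, 32.1 and 36.95 to 77.4, 97.6, 98.04 and 118 CPM (log2 1.71 ± 0.15, adjusted p = 2.47e-10). SEC61A1, the translocon pore, went from 128, 112, 116 and 154 to 218, 228, 265 and 245 CPM (log2 0.91 ± 0.10, adjusted p = 1.14e-08). The 3′ end of RUVBL1 lies over an exon of SEC61A1 on the opposite strand, and no source used here says whether reads were counted by strand. The last 300 bases of SEC61A1 itself have no such partner. The doubt about strand also holds for the genes named in the text whose last 300 bases overlap an annotated exon on the opposite strand. These are HYOU1, SSR3, CALR, FICD, DDIT3, MTHFD2, INHBE, PSMC1, MCL1, TNFRSF10A, MAFK, GINS1, HMGCS1, DGAT2, TRIM25, DEFB1, WIPI1 and SQSTM1.

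The UPR sensors and their transcription factors went both ways, with 4 of 10 tested higher, 2 lower and a median of 0.07, and 4 higher and none lower without libraries 3 and 4. EIF2AK3, which encodes PERK, rose from 28.9, 37.4, 31.9 and 30.5 to 104, 77.4, 64.8 and 77.3 CPM (log2 1.33 ± 0.14, adjusted p = 1.27e-08). CREB3L2 and CREB3L3, ATF6-like factors held in the ER membrane, rose by 1.01 ± 0.11 (adjusted p = 1.14e-08) and 0.99 ± 0.16 (adjusted p = 1.25e-05). XBP1, whose mRNA is spliced by IRE1, fell from 100.3, 93.9, 91.7 and 89.9 to 73.8, 74.9, 73.5 and 64.9 CPM (log2 -0.39 ± 0.11, adjusted p = 0.0054), a call that was lost without libraries 3 and 4 (-0.33, adjusted p = 0.0681). Gene counts do not show splicing of XBP1. ATF6 was at 102, 106, 96.5 and 89.9 CPM and 87.1, 86.1, 70.1 and 88.02 CPM (log2 -0.25 ± 0.12, adjusted p = 0.103) and ERN1, which encodes IRE1, at 28.9, 30.2, 29.2 and 41.7 and 45.6, 44.7, 28.9 and 26.5 CPM (log2 0.16 ± 0.19, adjusted p = 0.556). The first pair lay above all Btz libraries for ERN1 and the second at or under their lowest, and its sign turned without libraries 1 and 2 (-0.18, adjusted p = 0.554).

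Cytosolic heat shock genes rose on top of Btz. Of 28 tested, 20 rose and 1 fell, with a median of 0.60, and without libraries 3 and 4 again 20 rose and 1 fell. Their summed level went from 43520 ± 1650 to 71370 ± 8370 CPM (SD, n = 4). HSPA6, an inducible Hsp70 that most resting cells do not express (ENSG00000173110, chr1:161494330-161496684 in GRCh37, plus strand), changed most. It went from 16.2, 5.43, 9.29 and 7.78 CPM with Btz, which is 28 to 76 counts a library, to 221, 287, 348 and 179 CPM with both drugs, which is 953 to 1771 counts. This is a 26.8-fold difference (log2 4.74 ± 0.24, adjusted p = 3.13e-14), and HSPA6 was at 0 counts in every DMSO and nelfinavir-only library, so that no fold is given without Btz. DNAJB1, the main Hsp40 partner of Hsp70, went from 1311, 1371, 1324 and 1478 to 3186, 3401, 4397 and 3682 CPM (log2 1.42 ± 0.09, adjusted p = 3.16e-14). HSPH1, an Hsp110 exchange factor, went from 2180, 1957, 1806 and 1741 to 4195, 4486, 5336 and 3861 CPM (log2 1.22 ± 0.11, adjusted p = 8.77e-10). HSPA1A, the major inducible Hsp70, went from 3337, 3188, 3445 and 3413 to 6924, 8086, 6741 and 5292 CPM (log2 1.01 ± 0.11, adjusted p = 3.09e-08). Its neighbour HSPA1B encodes nearly the same protein and rose by 0.90 ± 0.10 (adjusted p = 3.71e-08). The last 300 bases of either gene had no near-identical match in another gene. Reads from further upstream may still be split between these copies.

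The mitochondrial chaperones of the same list also rose, HSPD1 (Hsp60) from 3818, 3991, 3582 and 3280 to 6239, 6803, 9119 and 7076 CPM (log2 0.99 ± 0.10, adjusted p = 5.27e-09). HSPE1, its co-chaperonin, rose by 0.69 ± 0.08 (adjusted p = 9.2e-08). HSP90AA1, the inducible cytosolic Hsp90, stood at 18480, 18370, 17280 and 19340 and 25750, 25060, 33490 and 26330 CPM (log2 0.59 ± 0.08, adjusted p = 1.28e-06). BAG3, which links Hsp70 to autophagy, was raised mainly in the first pair, at 347, 309.5, 301 and 329 and 742, 884, 390 and 381 CPM (log2 0.90 ± 0.20, adjusted p = 0.000685), and lost its call without it (0.31, adjusted p = 0.156). The member that fell was HSPA8, the constitutive Hsp70, at 804, 793, 809 and 865 and 752, 732, 349.7 and 446 CPM (log2 -0.52 ± 0.19, adjusted p = 0.0335). It was lowest in libraries 3 and 4, with libraries 1 and 2 just under the Btz range, and its change without them was -0.13 (adjusted p = 0.65).

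Heat shock genes did the opposite when nelfinavir was given alone. Without Btz, nelfinavir raised 1 and lowered 16 of the 28 genes, against 10.4% and 8.84% of all genes tested. The change on adding nelfinavir was higher with Btz than without it for 19 of them and lower for none, against 9.74% and 10% of all genes. HSPA1A, for example, was at 69.03, 72.5, 76 and 79.4 CPM in DMSO and 31.2, 37.3, 31.2 and 27.9 CPM with nelfinavir alone, and its changes with and without Btz differed by 2.23 ± 0.17 log2 units (adjusted p = 1.08e-11).

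HSF1, the heat shock factor, binds inverted GAA repeats. The pair GAANNTTC was in 9 of 25 matched promoter windows of the list (36.0%), against 4.56% of all tested genes. This search was also made after the changes were seen. Of genes more than 2-fold higher and more than 2-fold lower, 5.32% and 5.72% held it. Among the risers named above, HSPA6, HSPA1A and HSPA1B held it, and DNAJB1, HSPH1, HSPD1, HSPE1, HSP90AA1 and BAG3 did not. HSPA8, which fell, held it 2 times. The stretches of 2 inducible Hsp70 genes are shown with this pair in capitals (GRCh38.p14), the first holding it 2 times.
HSPA6 (chr1:161524345-161524493, plus strand): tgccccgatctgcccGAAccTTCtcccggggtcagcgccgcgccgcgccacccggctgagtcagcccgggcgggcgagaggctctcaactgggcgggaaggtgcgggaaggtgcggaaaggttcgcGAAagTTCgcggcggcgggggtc
HSPA1A (chr6:31815422-31815459, plus strand): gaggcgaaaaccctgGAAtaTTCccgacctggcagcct

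Transcription factors and feedback genes of the ISR rose further. Of 11 tested, 7 rose and none fell, with a median of 0.61, and 8 rose without libraries 3 and 4. ATF4, the central factor of the ISR, went from 556, 599.6, 558 and 697 to 873, 922, 1410 and 1105 CPM (log2 0.84 ± 0.12, adjusted p = 1.15e-06). Its 3′ end is nearly identical to pseudogenes, so its count may include theirs. DDIT3, which encodes the pro-apoptotic factor CHOP, went from 73.4, 72.9, 74.1 and 69.6 to 132, 119, 167 and 156 CPM (log2 0.99 ± 0.12, adjusted p = 6.56e-08), and overlaps the tRNA synthetase gene MARS on the other strand. TRIB3, a pseudokinase that binds ATF4 and limits its activity, went from 270.1, 276, 255 and 323 to 448, 437, 577 and 458 CPM (log2 0.77 ± 0.10, adjusted p = 5.06e-07). All 3 were higher in every library with nelfinavir. PPP1R15A, the inducible eIF2α phosphatase subunit GADD34, rose by 0.45 ± 0.11 (adjusted p = 0.00184) and ATF3 by 0.61 ± 0.12 (adjusted p = 0.000188). CEBPB, a partner of ATF4 on DNA, was higher in the first pair and lower in the second, at 124, 101, 112 and 124 and 172, 187, 99.4 and 93.3 CPM (log2 0.25 ± 0.17, adjusted p = 0.276), so that its change was 0.65 without libraries 3 and 4 (adjusted p = 0.00206) and -0.21 without 1 and 2 (adjusted p = 0.338). CEBPG, a related factor, had 0.36 (adjusted p = 0.174) and -0.03 without libraries 1 and 2 (adjusted p = 0.949). NUPR1, a stress-inducible chromatin protein, rose by 0.63 ± 0.17 (adjusted p = 0.00553), a call lost without libraries 3 and 4 (0.34, adjusted p = 0.22).

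Targets of ATF4 in amino acid supply rose in part. Of 16 genes of amino acid synthesis, 8 rose and 1 fell (median 0.50), and of 12 amino acid transporters, 8 rose and 1 fell (median 0.47). Without libraries 3 and 4 the numbers were 8 and 0, and 7 and 1. Without libraries 1 and 2 they were 10 and 2, and 7 and 0. ASNS, asparagine synthetase and a classical ATF4 target that shares its 3′ end with an overlapping annotated gene on the same strand, went from 134, 153, 129 and 168 to 246, 266, 315 and 238 CPM (log2 0.86 ± 0.11, adjusted p = 1.45e-07). PHGDH, the first enzyme of serine synthesis, went from 65.02, 58.8, 54.1 and 70.7 to 97.6, 110.4, 129 and 106 CPM (log2 0.84 ± 0.11, adjusted p = 4.14e-07). SLC3A2, the heavy chain of several amino acid exchangers, went from 600.3, 587, 618 and 659.8 to 1154, 1262, 1100 and 991 CPM (log2 0.87 ± 0.08, adjusted p = 9.96e-10). Against these, PCK2, mitochondrial PEP carboxykinase, fell from 72.3, 65.9, 50.5 and 72.8 to 52.2, 51.3, 44.4 and 46.4 CPM (log2 -0.43 ± 0.12, adjusted p = 0.00901), with overlap and without a call when libraries 3 and 4 were left out (-0.33, adjusted p = 0.125). SLC1A4, a serine and alanine transporter, fell from 148, 150.1, 126 and 175 to 97.9, 118, 123 and 114 CPM (log2 -0.40 ± 0.10, adjusted p = 0.00168), without a call when libraries 1 and 2 were left out (-0.28, adjusted p = 0.0538). PSAT1 and SLC7A11, both known ATF4 targets, were not called, at 0.02 ± 0.14 (adjusted p = 0.923) and 0.02 ± 0.09 (adjusted p = 0.904), and the sign of either depended on the scaling and the libraries used.

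Of 21 cytosolic tRNA synthetases, which charge tRNAs with amino acids, 7 rose and 1, FARSB, fell (median 0.10, and 6 and 0 without libraries 3 and 4). GARS went from 349.7, 346, 328 and 359.8 to 502, 497, 461 and 447 CPM (log2 0.46 ± 0.07, adjusted p = 1.08e-05) and TARS from 251, 255, 239.5 and 249.8 to 391, 370.4, 413 and 322 CPM (log2 0.59 ± 0.08, adjusted p = 2.08e-06). Among 5 tested secreted stress factors, 4 rose and 1 fell. STC2, a secreted glycoprotein, went from 207, 184, 166 and 183 to 256, 240.2, 305 and 282 CPM (log2 0.55 ± 0.10, adjusted p = 6.24e-05), while INHBE, an inhibin subunit, fell from 130, 146, 115 and 125 to 101, 83.3, 97.4 and 86.9 CPM (log2 -0.48 ± 0.09, adjusted p = 0.000184). VEGFA, an angiogenic growth factor, was at 43.4, 35.1, 39.5 and 38.04 and 75.9, 81.98, 35.8 and 36.8 CPM (log2 0.56 ± 0.19, adjusted p = 0.0256), high in the first pair alone, and without that pair its change was -0.06 (adjusted p = 0.842). GDF15 and ADM2, a stress cytokine and a peptide hormone, rose by 0.36 ± 0.13 (adjusted p = 0.0301) and 0.32 ± 0.12 (adjusted p = 0.0467). Without libraries 3 and 4 their changes were 0.39 and 0.35, no smaller but without a call (adjusted p = 0.0555 and 0.0877), and ADM2 lost its call without libraries 1 and 2 too (0.34, adjusted p = 0.0814). The list then had 2 members higher and 1 lower without libraries 3 and 4. SESN2, which restrains mTORC1 and is raised by the ISR, rose from 359, 374, 327 and 362 to 593, 684, 984 and 801 CPM (log2 1.11 ± 0.13, adjusted p = 4.39e-08), but DDIT4, another brake of mTORC1, fell from 226, 197, 216 and 229.5 to 167, 174, 188 and 166 CPM (log2 -0.32 ± 0.08, adjusted p = 0.00439). The call for DDIT4 was lost without libraries 1 and 2 (-0.24, adjusted p = 0.0801).

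The rise of ISR genes on adding nelfinavir was smaller with Btz than without it. In cells without Btz, nelfinavir raised 10 of 11 ISR factors (median 2.33), 14 of 16 amino acid synthesis genes (median 1.38) and 10 of 12 transporters (median 1.24). The changes with Btz were lower than those without it for 10 of 11, 13 of 16 and 7 of 12 genes, against 10% of all genes tested. ASNS was at 17.2, 14.1, 13.2 and 17.04 CPM in DMSO and 268, 226, 245 and 248 CPM with nelfinavir alone, against the 238 to 315 CPM with both drugs given above (difference of changes -3.14 ± 0.16, adjusted p = 3.07e-16). DDIT4 went from 23.1, 18.4, 19.3 and 18.02 to 155, 154, 148 and 159 CPM with nelfinavir alone and changed by -0.32 when nelfinavir was added to Btz (difference -3.28 ± 0.13, adjusted p = 2.42e-19). SLC7A11, the cystine transporter, had a difference of -3.1 ± 0.14 (adjusted p = 6.58e-18) and NUPR1 of -2.67 ± 0.24 (adjusted p = 3.79e-10). NUPR1 was at 78.6 ± 5.45 CPM with nelfinavir alone and 24.6 ± 5.903 CPM with both drugs (SD, n = 4). Levels with Btz alone stood at 146 ± 18.03 against 15.4 ± 2.06 CPM for ASNS and 217 ± 14.7 against 19.7 ± 2.35 CPM for DDIT4.

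**Figure D3:**
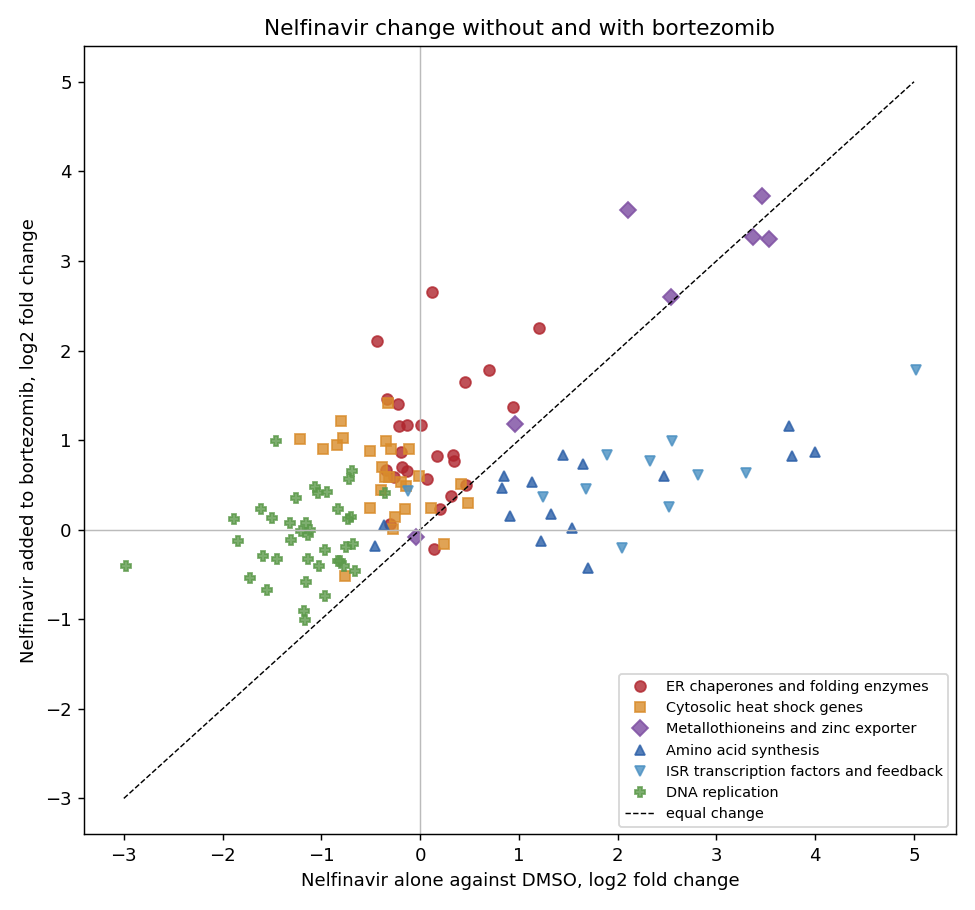
Log2 change on adding nelfinavir without Btz (horizontal) against that on adding it with Btz (vertical), each point a member of the lists in the legend and the dashed line equality. Most ISR and amino acid genes lie right of the line, with smaller changes in the presence of Btz, most ER chaperones, heat shock and DNA replication genes lie above it, and MT2A lies near it. HSPA6, at 0 without Btz, is left out.

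The composite site of C/EBP and ATF4 was searched as TGATGNAA on both strands. It was in 3 of 11 matched windows of amino acid synthesis genes (27.3%), in 2 of 10 of ISR factors (20.0%) and in 1.66% of all tested windows. Of genes more than 2-fold higher and more than 2-fold lower, 2.33% and 0.602% held it. The stretch of ASNS is shown with the site in capitals (GRCh38.p14).
ASNS (chr7:97872454-97872491, minus strand): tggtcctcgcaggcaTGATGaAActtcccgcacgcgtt

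The changes in the presence and absence of Btz come from separate libraries. Over the 12685 genes Pearson's r between them was 0.10 and Spearman's rank correlation 0.14. Over the 6343 genes above the median mean CPM they were 0.24 and 0.25. Of all genes 56.1% had the same sign in both, and of the 3669 genes called in the presence of Btz 62.3%. These values are a description across genes, which are not independent and were read in libraries of like depth. Of the genes raised in the presence of Btz, 546 were also raised without it. This is 27.6% of the first set and 41.4% of the second, against 10.4% and 15.6% of all genes tested. Of those lowered, 240 were lowered in both, 14.2% and 21.4%, against 8.84% and 13.4% of all genes. Another 148 were raised with Btz and lowered without it, 7.49% of those raised with Btz, against 8.84% of all genes lowered without it. The reverse held for 113, 6.67% of those lowered with Btz, against 10.4% of all genes raised without it. The difference itself passed the test upwards for 1236 genes and downwards for 1269.

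Metallothioneins, small cysteine-rich proteins that bind zinc and copper, rose with and without Btz. Of 7 tested genes of the metal response, 6 rose, all more than 2-fold, with a median of 3.24, and the same count rose without libraries 3 and 4. MT2A (ENSG00000125148, chr16:56642496-56643409 in GRCh37, plus strand) went from 139.9, 137, 108 and 154 to 664, 906, 1004 and 680.1 CPM, 6.05-fold (log2 2.6 ± 0.13, adjusted p = 1.55e-16). Without Btz it went from 101, 95.4, 109 and 92.9 to 664, 528, 523 and 601 CPM, and the changes differed by 0.06 ± 0.17 (adjusted p = 0.845). MT1E went from 7.27, 3.49, 6.12 and 6.05 to 70.2, 95.8, 77.01 and 59.5 CPM (log2 3.72 ± 0.21, adjusted p = 7.71e-15) and MT1X from 1.07, 1.16, 0.422 and 3.24 to 15.01, 24.5, 16.9 and 14.1 CPM (log2 3.57 ± 0.36, adjusted p = 2.98e-09). Of the 7, the change differed with and without Btz in 1, MT1X, which had few counts with Btz (1.47 ± 0.48, adjusted p = 0.0295). SLC30A1, which exports zinc from the cell, rose from 21.8, 28.7, 25.8 and 24.6 to 69.8, 70.6, 50.1 and 39.2 CPM (log2 1.18 ± 0.16, adjusted p = 1.18e-06). MTF1, the factor that binds their promoters, was not called (-0.08). Metallothionein 3′ ends are alike, and MT2A shares near-identical sequence with MT1G, so single members are less certain than the family.

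MTF1 binds the metal response element TGCNCNC. Being short, it was in 63.4% of tested windows, in 65.1% of genes more than 2-fold higher and in 62.0% of those more than 2-fold lower. Windows with 4 or more matches were 318 of 9715 (3.27%), a limit set after the data were seen and equal to the number in MT1X. Of the 10 genes of the list 5 had a window. SLC30A1, which rose, held 2 matches and MTF1 1. MT2A held 7 in the bases before its start and MT1X 4. Both stretches are shown with the fixed letters of each match in capitals (GRCh38.p14).
MT2A (chr16:56608334-56608583, plus strand): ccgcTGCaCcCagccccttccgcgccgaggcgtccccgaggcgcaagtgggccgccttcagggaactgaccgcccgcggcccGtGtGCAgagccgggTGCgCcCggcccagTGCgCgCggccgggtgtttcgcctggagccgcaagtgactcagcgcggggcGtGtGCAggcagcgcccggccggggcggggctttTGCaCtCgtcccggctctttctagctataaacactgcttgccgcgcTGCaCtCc
MT1X (chr16:56682305-56682438, plus strand): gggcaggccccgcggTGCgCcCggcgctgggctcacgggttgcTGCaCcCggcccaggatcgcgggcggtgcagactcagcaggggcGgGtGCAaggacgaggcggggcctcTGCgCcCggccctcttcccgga

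**Figure D4:**
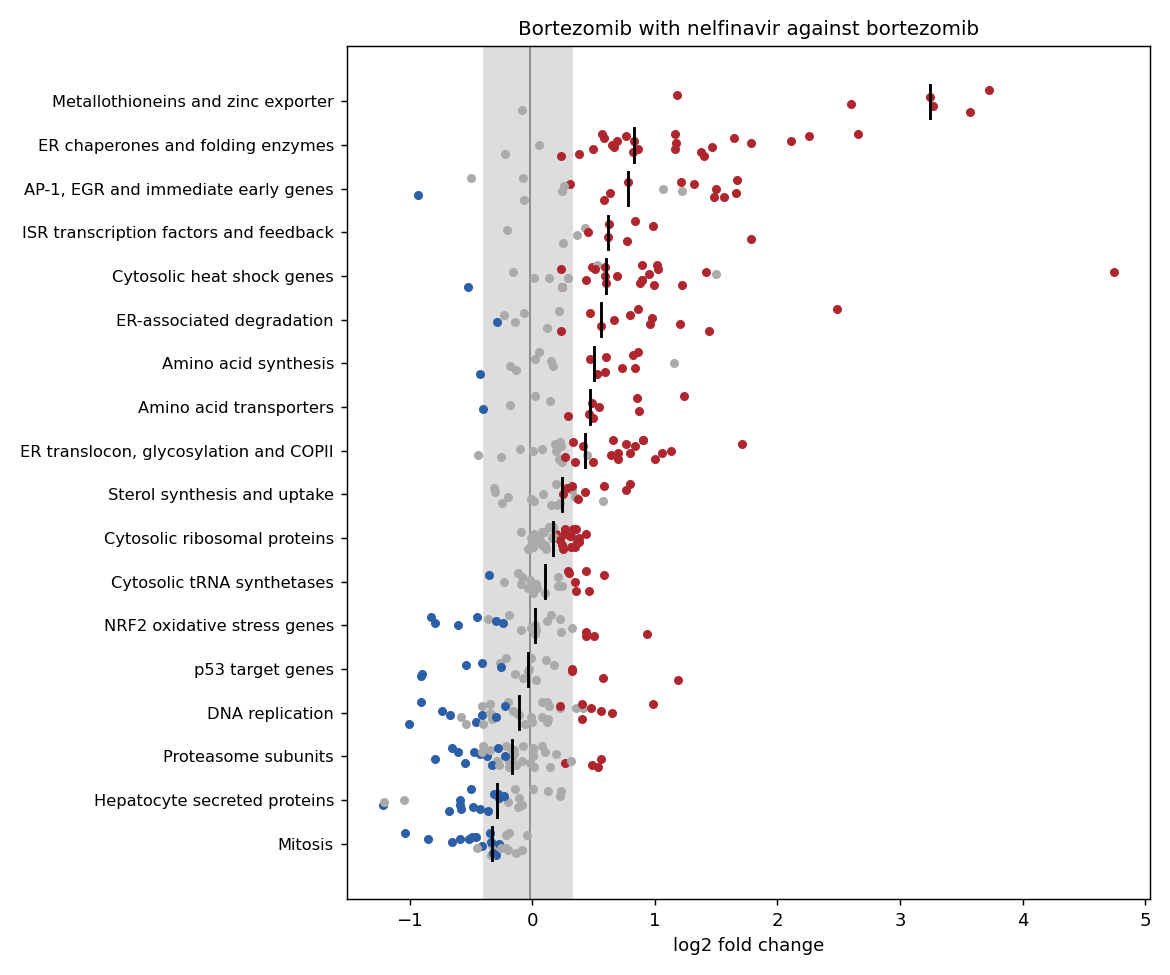
Log2 change on adding nelfinavir to Btz for each tested member of the gene lists (points, red called higher, blue called lower, grey not called), with the list median as a black bar and the middle 50% of all genes tested as a grey band. Metallothioneins (median 3.24), ER chaperones (0.83) and heat shock genes (0.60) lie to the right of the band, while mitosis (-0.33) and hepatocyte secreted proteins (-0.29) have negative medians inside it.

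The proteasome, the target of Btz, was measured over 40 subunit, assembly and regulator genes. Of these, 4 rose and 10 fell, with a median of -0.17. The numbers were 2 and 7 without libraries 3 and 4, and 8 and 14 without libraries 1 and 2. Their summed level was 12520 ± 629 CPM with Btz and 11320 ± 235 CPM with both drugs (SD, n = 4). PSME4, the activator PA200, rose from 250.4, 257, 232 and 232 to 336, 368, 384 and 346 CPM (log2 0.56 ± 0.09, adjusted p = 1.16e-05). The core subunit PSMB4 fell from 280, 264, 276 and 312 to 219, 209, 207 and 207 CPM (log2 -0.43 ± 0.08, adjusted p = 5.33e-05) and PSMA7 from 1411, 1359, 1462 and 1612 to 1244, 1077, 1149 and 1177 CPM (log2 -0.33 ± 0.07, adjusted p = 0.000693). PSMB2 and PSMA5 were low in libraries 3 and 4 and lost their calls without them (-0.29, adjusted p = 0.142, and -0.32, adjusted p = 0.253). PSMC1, an ATPase of the base, rose by 0.53 ± 0.17 (adjusted p = 0.0198), also a call lost without these libraries.

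Of 26 apoptosis genes, 8 rose and 4 fell, against 15.6% and 13.4% of all genes tested. Their median was 0.14, and without libraries 3 and 4 the numbers were 5 and 3. BCL2L11, the BH3-only killer BIM, went from 19.03, 12.4, 13.3 and 11.02 to 47.98, 42.7, 37.9 and 27.4 CPM (log2 1.48 ± 0.17, adjusted p = 4.29e-08), and was not called with nelfinavir alone (-0.29, adjusted p = 0.257). BBC3, which encodes PUMA, went from 72.9, 76.99, 81.3 and 79.96 to 91.3, 102, 156 and 134 CPM (log2 0.63 ± 0.16, adjusted p = 0.00275), a call lost without libraries 3 and 4 (0.32, adjusted p = 0.184). MCL1, which restrains BIM and PUMA, rose as well, from 189, 160.4, 147 and 169 to 243, 243, 206 and 212 CPM (log2 0.44 ± 0.09, adjusted p = 0.00049). CASP8, the initiator caspase of death receptors, fell from 163, 147, 175 and 115 to 75.5, 95.8, 33.01 and 56.7 CPM (log2 -1.21 ± 0.20, adjusted p = 1.52e-05). TNFRSF10A, the TRAIL receptor DR4, fell by 0.40 on the log2 scale (adjusted p = 0.0028), a call lost without libraries 1 and 2 (-0.25, adjusted p = 0.11). Of 19 p53 target genes, 4 rose and 5 fell (median -0.04), against the same 15.6% and 13.4%. Without libraries 3 and 4 the numbers were 1 and 2. MDM2, the ubiquitin ligase of p53, fell from 269, 267, 286 and 242 to 149, 141, 144 and 137 CPM (log2 -0.90 ± 0.08, adjusted p = 6.07e-10). DMSO libraries had 149.8 ± 8.099 CPM of it (SD, n = 4). GADD45B rose from 17.8, 13.2, 9.72 and 5.62 to 20.9, 38.2, 23.97 and 23.1 CPM (log2 1.19 ± 0.23, adjusted p = 0.000158).

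Immediate early and AP-1 genes rose in 11 of 19 cases and fell in 1 (median 0.78), and without libraries 3 and 4 in 9 and 1. MAFF, a small MAF factor, went from 56.2, 39.6, 54.9 and 56.8 to 155, 192, 159.5 and 148 CPM (log2 1.66 ± 0.13, adjusted p = 6.15e-12), and MAFK from 168, 151, 153 and 145 to 358, 375, 428 and 379 CPM (log2 1.32 ± 0.11, adjusted p = 6.83e-11). IER5, a target of HSF1, went from 38.5, 30.2, 46.05 and 38.7 to 98.7, 127, 162 and 100 CPM (log2 1.67 ± 0.16, adjusted p = 1.43e-09). DUSP8, a phosphatase of stress kinases, rose by 1.56 ± 0.17 (adjusted p = 1.79e-08). KLF6, a zinc finger factor, fell from 255, 245, 241 and 210.1 to 124, 121, 127 and 126 CPM (log2 -0.93 ± 0.11, adjusted p = 1.22e-07).

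Of 39 DNA replication genes, 7 rose and 8 fell on adding nelfinavir to Btz, against 15.6% and 13.4% of all genes tested. Their median was -0.11, and without libraries 3 and 4 the numbers were 4 and 6. CDC6, which loads the replicative helicase, rose from 60.5, 61.9, 64.2 and 76.5 to 126, 142, 132 and 121 CPM (log2 0.99 ± 0.10, adjusted p = 1.52e-09). GINS1, a helicase subunit, fell from 20.1, 21.7, 25.4 and 25.5 to 16.5, 12.7, 7.07 and 13.1 CPM (log2 -0.91 ± 0.18, adjusted p = 0.000201). Without Btz, nelfinavir lowered all 39 (median -1.13), against 8.84% of all genes tested. The difference of changes was positive for 29 and negative for none (median 1.11), against 9.74% and 10% of all genes. CDC6 was at 69.5, 66.6, 68.7 and 66.9 CPM in DMSO and 27, 23.1, 21.02 and 27.5 CPM with nelfinavir alone (difference 2.45 ± 0.14, adjusted p = 3.69e-15). MCM4, a helicase subunit, was at 139, 139, 134 and 131 and 43, 48.7, 44.5 and 41.7 CPM without Btz, and at 73.6, 68.1, 86.4 and 85.2 and 106, 85.4, 91.2 and 83.5 CPM with it (difference 1.84 ± 0.13, adjusted p = 3.9e-12). None of 25 mitotic genes rose and 14 fell (median -0.33, and 10 fell without libraries 3 and 4). CCNB1, cyclin B1, fell from 102, 107, 112 and 107 to 75.9, 61.1, 44.2 and 56.3 CPM (log2 -0.85 ± 0.11, adjusted p = 4.48e-07). BUB1B, a spindle checkpoint kinase, fell from 32.9, 39.2, 42.7 and 39.3 to 22.6, 18.6, 20.4 and 13.5 CPM (log2 -1.04 ± 0.15, adjusted p = 2.73e-06). CDKN1B, the cyclin-dependent kinase inhibitor p27, also fell, from 53.7, 58.4, 59.99 and 59 to 33.6, 20.9, 30.8 and 24.4 CPM (log2 -1.07 ± 0.13, adjusted p = 6.5e-08).

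The gene with the smallest p among those that fell was DGAT2, which makes triglycerides (ENSG00000062282, chr11:75470557-75512580 in GRCh37, plus strand). It went from 38.7, 35.5, 46.3 and 42.1 to 5.28, 7.04, 5.698 and 7.88 CPM, 0.160 times the Btz level (log2 -2.64 ± 0.16, adjusted p = 2.62e-14). A gene on the opposite strand overlaps it. ACSL5, which activates fatty acids, fell from 149.9, 138, 142 and 161 to 58.3, 62.9, 58.7 and 56.7 CPM (log2 -1.32 ± 0.09, adjusted p = 7.01e-13). Fatty acid and triglyceride genes as a list went both ways, with 7 of 22 higher and 4 lower (6 and 4 without libraries 3 and 4), FASN among the former (0.69 ± 0.11, adjusted p = 1.11e-05) and GPAM among the latter (-0.51 ± 0.09, adjusted p = 5.95e-05). Of 22 genes of sterol synthesis and uptake, 8 rose and none fell (median 0.24), while 6 rose and 2 fell without libraries 3 and 4. HMGCS1, HMG-CoA synthase, rose from 186, 228, 200 and 226 to 327, 373, 390.4 and 371 CPM (log2 0.80 ± 0.09, adjusted p = 1.38e-08), and fell with nelfinavir alone (-0.86, adjusted p = 2.73e-09).

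Of 25 secreted proteins of hepatocytes, none rose and 13 fell (median -0.29, and 10 fell without libraries 3 and 4), with a summed level of 17820 ± 402 CPM with Btz and 13660 ± 736 CPM with both drugs (SD, n = 4). FGA, the fibrinogen alpha chain, fell from 122, 114, 142 and 109.8 to 48.8, 31.3, 62.1 and 66.4 CPM (log2 -1.22 ± 0.14, adjusted p = 3.37e-08). APOB, the protein of low density lipoprotein, fell from 2669, 2708, 2809 and 2224 to 1671, 1434, 1707 and 2113 CPM (log2 -0.59 ± 0.10, adjusted p = 5.95e-05). ALB and AFP, albumin and its fetal counterpart, were lowest in libraries 3 and 4 and lost their calls without them (-0.23, adjusted p = 0.184, and -0.27, adjusted p = 0.112). The row named UGT1A8, a bilirubin and drug glucuronidation gene, fell from 41.9, 42.9, 32.7 and 37.4 to 7.82, 7.72, 7.07 and 7.695 CPM (log2 -2.35 ± 0.15, adjusted p = 9.59e-14). Its identifier, ENSG00000241635, is UGT1A1 in a later GRCh37 annotation (chr2:234668916-234681946, plus strand), and the UGT1A genes share their last exons, so this row stands for the locus. Of 16 hepatocyte transcription factors, 4 rose and 5 fell, with and without libraries 3 and 4, FOXA2 from 29.3, 28.5, 31.5 and 33.5 to 70.6, 81.8, 69.4 and 79.01 CPM (log2 1.29 ± 0.10, adjusted p = 1.88e-11) and HNF4A from 98.8, 77.4, 86.6 and 83.8 to 65.3, 46.8, 52.1 and 70.9 CPM (log2 -0.56 ± 0.12, adjusted p = 0.000401).

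Among mitochondrially encoded genes the share of all counts fell but the genes did not move alike. Of 13, 2 rose and 3 fell (2 and 2 without libraries 3 and 4). MT-CO3, a cytochrome oxidase subunit, went from 46750, 47010, 52610 and 49300 to 33350, 33610, 29660 and 31090 CPM (log2 -0.62 ± 0.09, adjusted p = 3.68e-06). MT-ND6, the protein gene on the light strand, went from 284, 251, 210.2 and 242 to 748, 1055, 1395 and 1032 CPM (log2 2.1 ± 0.17, adjusted p = 1.76e-11). Removing these 13 genes before scaling left 1905 genes higher and 1747 lower. Cytosolic ribosomal protein genes rose slightly, 18 of 41 with none lower (median 0.17), but 9 without libraries 3 and 4. Without libraries 1 and 2, 23 rose and 1 fell.

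Outside the lists, the genes with the smallest p among those raised more than 2-fold include secretory pathway and signalling genes. NUCB2, a calcium-binding protein of the secretory pathway, rose from 97.3, 109, 105 and 119 to 286, 288, 270.3 and 264 CPM (log2 1.37 ± 0.08, adjusted p = 3.46e-14). GFPT1, the first enzyme of the hexosamine pathway that feeds N-glycosylation, rose from 131, 135, 129 and 129.7 to 329, 383, 334 and 296 CPM (log2 1.35 ± 0.08, adjusted p = 5.22e-14). TRIM25, a ubiquitin ligase, rose from 80.6, 63.6, 61.5 and 73.9 to 189, 203, 230.1 and 200.4 CPM (log2 1.56 ± 0.10, adjusted p = 6.5e-14). ANKRD1, a YAP target, showed the largest called contrast with nelfinavir alone among the genes named here. With Btz it rose from 18.4, 21.5, 22.4 and 17.7 to 85.4, 82.9, 135 and 91.8 CPM (log2 2.3 ± 0.16, adjusted p = 1.1e-12), and without Btz it fell from 17.9 ± 3.29 to 3.77 ± 1.11 CPM (SD, n = 4, difference 4.54 ± 0.25, adjusted p = 3e-15). DEFB1, a beta-defensin, rose by 2.05 ± 0.14 (adjusted p = 4.68e-13) and ZIC2, a zinc finger factor, by 2.37 ± 0.17 (adjusted p = 2.23e-12). Among those that fell were NFKBIA, the inhibitor of NF-κB, from 168, 188, 186 and 194 to 71.6, 81.8, 88.6 and 79.2 CPM (log2 -1.2 ± 0.10, adjusted p = 2.82e-11), and ID1, a repressor of differentiation, from 189.9, 191, 205 and 254 to 85.8, 65.6, 45.2 and 57.05 CPM (log2 -1.73 ± 0.15, adjusted p = 1.46e-10). PPP1R10, a nuclear phosphatase subunit, fell by 1.39 on the log2 scale (adjusted p = 1.41e-10), IRS1, the insulin receptor substrate, by 1.41 (adjusted p = 7.61e-08) and SOX5 by 2.42 (adjusted p = 2.04e-09).

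ISRIB acts against the ISR where nelfinavir adds to it, so the libraries with Btz and nelfinavir were set beside those with Btz and ISRIB, with no Btz-only library in the contrast. With nelfinavir 1669 genes were higher (13.2% of those tested) and 1429 lower (11.3%) than with ISRIB. ISR factors were higher with nelfinavir in 8 of 11 cases, amino acid synthesis genes in 11 of 16 and tRNA synthetases in 13 of 21, and none of these was lower. SESN2 had 593, 684, 984 and 801 CPM with nelfinavir and 166, 160, 215 and 123 CPM with ISRIB (log2 2.2 ± 0.13, adjusted p = 3.03e-14). Heat shock genes were also higher, 21 of 28 with none lower, HSPA6 at 221, 287, 348 and 179 against 8.46, 11.5, 6.53 and 6.42 CPM (log2 4.96 ± 0.24, adjusted p = 2.31e-14) and DNAJB1 at 3186, 3401, 4397 and 3682 against 1232, 1337, 1455 and 1184 CPM (log2 1.49 ± 0.09, adjusted p = 1.49e-14). Metallothioneins and SLC30A1 were higher with nelfinavir in 6 of 7.

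ER chaperones went both ways between the drugs, with 6 of 25 higher and 4 lower with nelfinavir and a median of -0.06, at a summed 27280 ± 2580 CPM with nelfinavir and 24010 ± 1240 CPM with ISRIB (SD, n = 4). HSPA5 was at 9768, 10210, 11310 and 8802 CPM with Btz and ISRIB, under the 11480, 12300, 16940 and 12950 CPM with nelfinavir (log2 0.42 ± 0.10, adjusted p = 0.00153), and MANF was higher with ISRIB (log2 -0.44 ± 0.13, adjusted p = 0.0127). HSP90B1 had a difference of -0.06 ± 0.10 (adjusted p = 0.729). Sterol genes were lower with nelfinavir in 16 of 22 cases and higher in none, HMGCS1 at 327, 373, 390.4 and 371 against 503, 535, 599.9 and 539 CPM (log2 -0.57 ± 0.09, adjusted p = 4.69e-06). Hepatocyte secreted proteins were lower in 14 of 25. Mitotic genes were higher with nelfinavir in 1 of 25 cases and lower in none. Their summed level was 2247 ± 97.3 CPM with nelfinavir and 2218 ± 166 CPM with ISRIB, both under the 2788 ± 76.9 CPM with Btz alone (SD, n = 4). Of 40 proteasome genes 5 were higher and 3 lower, at a summed 11320 ± 235 CPM with nelfinavir and 11070 ± 356 CPM with ISRIB (SD, n = 4). TM4SF1, a tetraspan membrane protein, had 270.1, 254, 285 and 263 CPM with nelfinavir and 1098, 1176, 1152 and 1150 CPM with ISRIB (log2 -2.09 ± 0.08, adjusted p = 8.61e-20). Btz + ISRIB library 3 lay apart from the other libraries of its group, at 3.36 on the second component against 16.96 to 23.96. Leaving it and Btz + nelfinavir libraries 3 and 4 out gave 1372 higher and 925 lower.

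**Figure D5:**
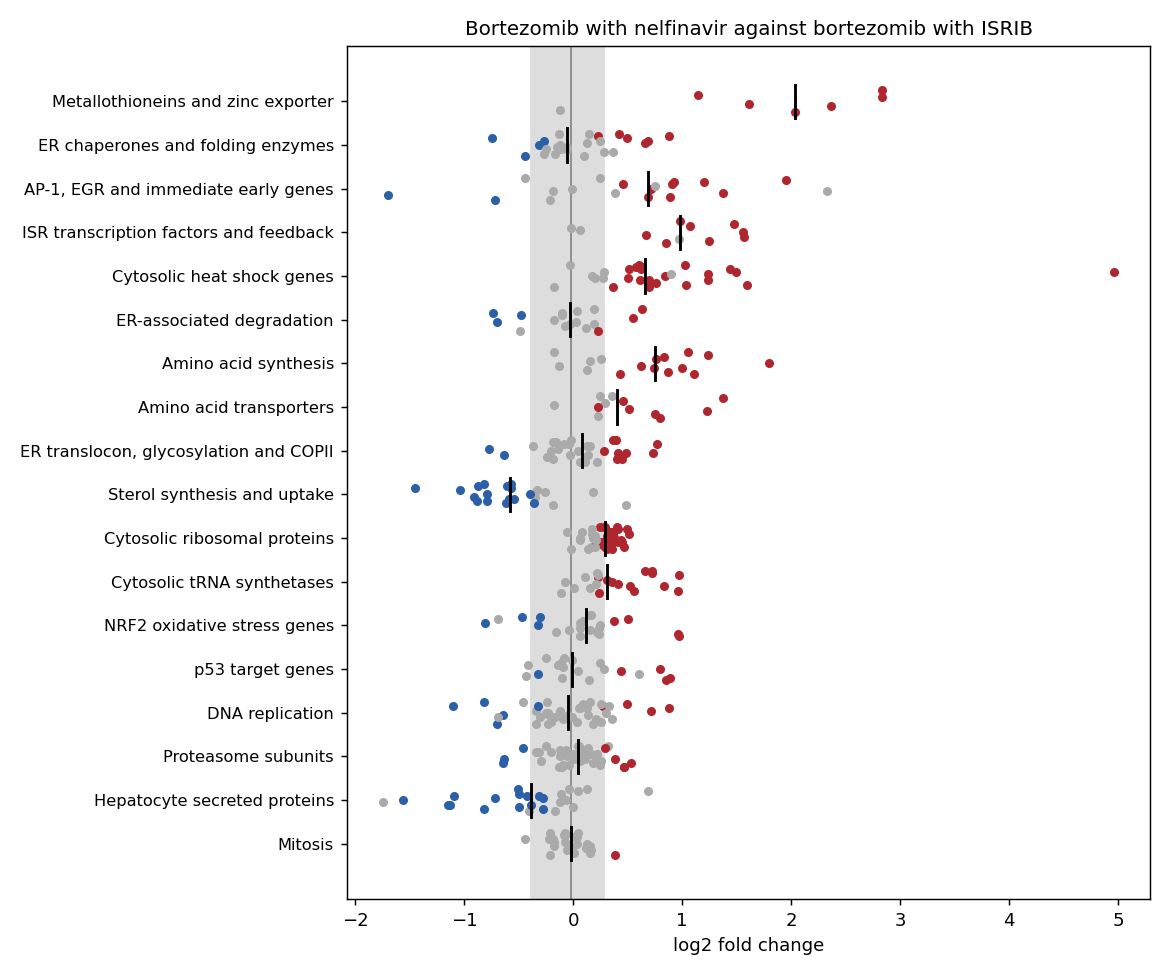
Log2 difference between Btz + nelfinavir and Btz + ISRIB for each tested member of the gene lists (points, red called higher and blue called lower with nelfinavir, grey not called), with list medians as black bars and the middle 50% of all genes tested as a grey band. ISR factors (median 0.98), heat shock genes (0.66) and metallothioneins (2.04) lie to the right, sterol genes (-0.58) to the left, and ER chaperones (-0.06) inside the band.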

How the data were processed

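RNA from HepG2 cells was prepared as 3′ libraries (Lexogen QuantSeq, forward). The authors trimmed the reads with cutadapt 2.8, aligned them to hg19 (GRCh37) with STAR and deposited raw counts for 18915 genes in 24 libraries. These counts were used as deposited. Whether reads were counted by strand is not given in the sources used here.

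Genes were kept by filterByExpr (minimum count 5, minimum total 25), which left 12685. A single edgeR 4.0.16 quasi-likelihood model (R 4.3.3, limma 3.58.1, TMM factors) over all 24 libraries, with 1 coefficient a group, gave each contrast, and p-values were adjusted over all genes tested. SE is the size of the log2 change divided by the square root of F. Library values were compared by exact permutation. On data simulated from these libraries for the main comparison, 48 of 200 genes changed 1.5-fold and 142 of 200 changed 2-fold were recovered among 12685 genes. In these steps 4 and 6 unchanged genes were called, and 0 were called where none changed. The simulated libraries were drawn independently, without the pairs seen among the Btz + nelfinavir libraries, so false calls under such a split were not tested. DESeq2 1.42.0, other factors and filters, thinning, a replicate block and omitted libraries were tried as alternatives. Sequences are from RefSeq (GRCh38.p14) and loci from GENCODE on GRCh37.

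The genes named are members of 30 lists (641 genes, 616 with counts, the other 25 not analysed here), the 20 per direction with the smallest p among called genes past 2-fold without overlap, the 10 per direction with the smallest p in the difference with and without Btz, and the 5 per direction against ISRIB. Within a list, members with the smallest p and those against its direction were named. Other list members, such as those that differed between the library pairs, were named after their values were seen. FICD and SERP1 were named after the promoter search. The comparison and lists were chosen with earlier results of these data known, and the promoter motifs and the omission of library pairs were chosen after seeing the data.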

Additional observations from a re-analysis of the deposited data

Results flagged for a closer look

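Nelfinavir changed 1236 genes more upwards and 1269 more downwards with Btz than without it. Among the 10 genes per direction with the smallest p in this test of the difference, the change was more positive with Btz for ANKRD1 (4.54 log2 units), DEFB1 (2.72), SDF2L1 (2.55), HSPA5 (2.54), CDC6 (2.45), HSPA1A (2.23), the noncoding MIR4435-1HG (2.15), MCM4 (1.84), DNAJB1 (1.75) and HMGCS1 (1.66). These hold ER and cytosolic chaperones, replication genes and a sterol enzyme. It was more negative for DDIT4 (-3.28), ASNS (-3.14), SLC7A11 (-3.10), INHBE (-2.91), ADM2 (-2.74), S100P (-2.56), PCK2 (-2.12), MTHFD2 (-1.87), SLC1A4 (-1.72) and GARS (-1.5), of which most are known ATF4 targets. MIR4435-1HG shares near-identical sequence with another gene.

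In 16 of 356 checks a single library stood far from the other 3 of its group by Dixon's ratio, where chance flags about 1 in 20 groups. With Btz alone these libraries held 154 CPM of DNAJB11, 84.7 of HERPUD1, 41.7 of ERN1, 279 of MTHFD2, 39.6 of MAFF, 3.85 of ZIC2, 33.3 of SRGAP1 and 525 of TM4SF1. With both drugs they held 273 CPM of SDF2L1, 64.9 of XBP1, 70.1 of ATF6, 33490 of HSP90AA1, 577 of TRIB3, 219 of PSMB4, 36.0 of DUSP8 and 7.07 of UGT1A8.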

How the results depend on the processing

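The counts of genes called on adding nelfinavir to Btz (1975 higher, 1694 lower) moved by less than 1.5 times under DESeq2 (2146 and 1796), RLE (2025 and 1650) and upper-quartile factors (1706 and 1960), library totals (1689 and 1871), no filter (2167 and 1465) and removal of mitochondrially encoded genes (1905 and 1747). The share of calls that were higher ran from 46.5% to 55.1% across scalings, against 53.8%. With only the groups compared in the fit, which has fewer libraries to estimate the spread, 1284 rose, 962 fell and 267 were more than 2-fold lower, and against ISRIB 985 were higher and 755 lower. A test for changes above 2-fold passed 48 higher and 18 lower. Without Btz + nelfinavir libraries 3 and 4, 1098 genes fell, and 946 were lower than with ISRIB, or 925 when Btz + ISRIB library 3 was left out too.

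Leaving out 1 library at a time gave 1761 to 2241 genes higher and 1170 to 1455 lower. The genes of uncertain sign were those that differed between the pairs of libraries. Without Btz + nelfinavir libraries 1 and 2 the change was -0.182 for ERN1, -0.211 for CEBPB, -0.026 for CEBPG, -0.219 for PSAT1, -0.13 for SLC7A11, -0.055 for VEGFA, 0.083 for SIL1 and -0.077 for ERO1L. Without libraries 3 and 4 it was 0.02 for EIF4EBP1. Upper-quartile factors gave PSAT1 -0.023 and SLC7A11 -0.025, and library totals -0.016 for both. With 1 library left out PSAT1 ran from -0.03 to 0.195 and SLC7A11 from -0.011 to 0.143. The cause was not tested.

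Replicate numbers did not pair the libraries (correlations of same-numbered libraries -0.05 to 0.01). With the replicate block 1999 genes rose and 1734 fell, 1291 and 1305 passed in the difference with and without Btz, and 1715 and 1475 against ISRIB. At these depths and with 4 libraries a group, simulated without library pairs, 48 of 200 changes of 1.5-fold were recovered. Thinning to the smallest library gave 1910 higher and 1609 lower.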

Other observations

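The kinases, phosphatases and exchange factors around eIF2 had 3 of 13 members higher and 1 lower on adding nelfinavir to Btz, against 15.6% and 13.4% of all genes. The one that fell was EIF2AK1, which encodes the heme-regulated kinase HRI, at 409, 459, 462 and 480.4 CPM with Btz and 338, 351, 305 and 324 CPM with both drugs (log2 -0.46 ± 0.08, adjusted p = 3.3e-05), and its groups did not overlap. Among mTORC1 brakes and Tribbles genes 3 of 10 rose and 1 fell. Besides SESN2, FNIP1, a folliculin partner, rose from 23.3, 26.96, 39.9 and 30.3 to 48.4, 55.9, 43.4 and 70.8 CPM (log2 0.86 ± 0.14, adjusted p = 1.65e-05).

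Oxidative stress genes of the NRF2 pathway went both ways, with 4 of 22 higher and 6 lower, against 15.6% and 13.4% of all genes. Nelfinavir alone raised 12 and lowered none, against 10.4% and 8.84% of all genes. GCLM, which limits glutathione synthesis, rose from 225, 214, 232 and 267 to 328, 376, 342 and 284 CPM (log2 0.51 ± 0.13, adjusted p = 0.00287), and ABCC3, an organic anion exporter, fell from 57.96, 57.2, 57.03 and 59.4 to 33.6, 34.97, 35.4 and 26.8 CPM (log2 -0.83 ± 0.11, adjusted p = 6.21e-07). Of 26 autophagy and lysosome genes 7 rose and 5 fell on adding nelfinavir to Btz, against the same 15.6% and 13.4%. WIPI1, which binds forming autophagosomes, rose by 0.80 ± 0.14 (adjusted p = 6.27e-05), while CTSB, the lysosomal protease cathepsin B, fell by 0.64 on the log2 scale (adjusted p = 1.35e-07). SQSTM1, the autophagy receptor p62, went from 938, 895, 902 and 909 to 715, 732, 757 and 768 CPM (log2 -0.29 ± 0.09, adjusted p = 0.0145), and without libraries 1 and 2 its change was -0.21 (adjusted p = 0.166).

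Nuclear genes of the respiratory chain fell in 6 of 26 cases and rose in 1, against 3 and 0 without libraries 3 and 4. Without libraries 1 and 2, 9 fell and 4 rose. Of 6 tested snoRNA host genes 3 rose and none fell, and all 6 were higher than with Btz and ISRIB. Of 3 tested markers of blood, endothelial and stromal cells 1, ACTA2, was lower.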
